A study of Mus musculus with 10 samples.

Results

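Mitochondrial DNA encodes 22 tRNAs of its own, and 6 of them are described here: the tRNAs for glycine (anticodon TCC), arginine (TCG), histidine (GTG), serine (GCT), leucine (TAG) and threonine (TGT). They were chosen by name, as the tRNAs of the last stretch of the heavy-strand transcript from Gly to Thr, and all 6 had reads in all 10 sperm samples. Each tRNA was divided into reads of its 5′ end, its 3′ end, its CCA end and the remaining internal reads, which gave 24 parts out of 1473 non-overlapping features in the sequencing files. Small RNA had been sequenced from spermatozoa taken from the tail of the epididymis and the vas deferens of C57BL/6J males. The 5 HFD-F0 samples came from males given a high-fat diet with 42% of kcal as fat, and the 5 CD-F0 samples from males given a control diet with 10% of kcal as fat. Both diets began at 4 weeks of age and lasted 10 weeks, and the males of both groups are the fathers (F0), with no transgene or deletion named. Whether a sample was 1 mouse or a pool is not stated in the sources used here, so p-values measure the spread between these samples only.

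The heavy strand of mouse mitochondrial DNA is transcribed as one long RNA in which tRNAs stand between the coding and ribosomal sequences like punctuation. RNase P cuts at the 5′ end of each tRNA and the mitochondrial RNase Z at its 3′ end, and the enzyme TRNT1 then adds the bases CCA, which the gene does not encode and which the aminoacyl-tRNA synthetase needs. The mature tRNAs serve the mitochondrial ribosome, which makes subunits of the respiratory chain. In sperm the mitochondria are wound around the midpiece. Fragments of tRNAs, called tsRNAs, are abundant in mature sperm, and the RNA sequenced here was cut from a gel at a size shorter than any whole tRNA, so every value below is a number of fragments and not of intact tRNAs.

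The 6 gene sequences are shown because the parts compared below refer to the ends of these tRNAs. The histidine, serine and leucine genes also follow each other in an unbroken run. The mitochondrial tRNA sequences that the reads were aligned to were not available here and may differ from those shown. The 6 sequences come from the GENCODE M21 annotation of GRCm38, all on the plus strand of chromosome M. They are written 5′ to 3′ as DNA with the anticodon in capitals.
mt_tRNA-Gly-TCC (mt-Tg): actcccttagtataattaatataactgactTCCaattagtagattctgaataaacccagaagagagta
mt_tRNA-Arg-TCG (mt-Tr): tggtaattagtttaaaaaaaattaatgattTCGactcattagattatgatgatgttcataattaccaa
mt_tRNA-His-GTG (mt-Th): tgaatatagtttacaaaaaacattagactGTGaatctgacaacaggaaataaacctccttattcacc
mt_tRNA-Ser-GCT (mt-Ts2): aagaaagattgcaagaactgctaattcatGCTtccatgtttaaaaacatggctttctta
mt_tRNA-Leu-TAG (mt-Tl2): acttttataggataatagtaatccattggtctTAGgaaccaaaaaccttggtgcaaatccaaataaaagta
mt_tRNA-Thr-TGT (mt-Tt): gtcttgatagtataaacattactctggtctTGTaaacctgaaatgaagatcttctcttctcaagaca

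The glycine gene mt-Tg lies at chrM:9391-9458, directly between mt-Co3 and mt-Nd3, which encode subunits of cytochrome c oxidase and of complex I. The arginine gene mt-Tr lies at chrM:9808-9875, 1 base after mt-Nd3 and 1 base before mt-Nd4l. The histidine gene mt-Th lies at chrM:11546-11612, 1 base after mt-Nd4, with 0 bases between it and mt-Ts2. The serine gene mt-Ts2 lies at chrM:11613-11671 and shares its last base with the leucine gene mt-Tl2 at chrM:11671-11741, which is followed at once by mt-Nd5. The threonine gene mt-Tt lies at chrM:15289-15355, between mt-Cytb, the cytochrome b gene, and mt-Tp, the proline tRNA gene of the opposite strand. The genes are 59 to 71 bases long, and the serine gene is the shortest of the 22. It is known as a tRNA that lacks the D arm. Their G and C content ran from 22.1% in the arginine gene to 34.3% in the threonine gene, beside 17.1% to 44.9% with a median of 34.1% over all 22 mitochondrial tRNA genes.

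The libraries held 29558751 to 32178088 clean reads, of which 92.6% to 95.2% were annotated. Between 73.3% and 74.7% of the clean reads matched the genome in HFD-F0 and between 64.9% and 75.2% in CD-F0, where replicates 1, 4 and 5 were under 70%. The cell type was checked against miRNA precursors. All 4 sperm and testis markers were listed, with a summed level of 10475 to 12647 RPM (reads per 1000000 clean reads) in CD-F0 and 7273 to 15061 in HFD-F0. Of these 4, 3 had a higher mean in HFD-F0. The mean of mir-449a was lower there, at 7107 ± 1589 RPM in CD-F0 and 5606 ± 2161 in HFD-F0 (SD, n = 5). Markers of other cells were listed too. The summed level of 6 smooth muscle markers was 21352 to 29447 RPM in CD-F0 and 15876 to 36525 in HFD-F0. A higher mean in HFD-F0 was found for 4 of these 6. The summed level of 7 blood and immune markers was 3686 to 5534 RPM in CD-F0 and 3249 to 6033 in HFD-F0. Of these 7, 6 had a higher mean in HFD-F0, and mir-451a had a lower one, at 1122 ± 439 RPM in CD-F0 and 964 ± 542 in HFD-F0 (SD, n = 5). Only mir-223, a miRNA of myeloid cells, did not overlap, at 361.9 ± 13.7 RPM in CD-F0 and 527.5 ± 57.8 in HFD-F0 (SD, n = 5). Among 641 tested features, 2.96% had every HFD-F0 sample above every CD-F0 sample. All 6 markers of the epididymal epithelium had a higher mean in HFD-F0, with a sum of 3969 to 6756 RPM in CD-F0 and 5520 to 9463 in HFD-F0. No marker was at 0 in all samples, and the part of other cells in the results below was not tested. In such bulk samples, fewer mitochondria or cells and less RNA per cell cannot be told apart.

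Fragments of the histidine tRNA made up most of the reads of the 6, with 66.9% ± 5.14 in CD-F0 and 69.0% ± 7.30 in HFD-F0 (SD, n = 5). Per 100 nt of gene, the level of the histidine tRNA was 330.2 ± 140 RPM in CD-F0 and 603.8 ± 119 in HFD-F0, above the leucine tRNA in all 10 samples, with a mean 7.29 times as high. Leucine (45.0 ± 14.8 and 83.2 ± 36.7 RPM per 100 nt) and threonine (48.3 ± 20.4 and 78.0 ± 15.8) came next and did not differ in a fixed order, since leucine was the higher in 4 of 10 samples. Threonine was above glycine (24.8 ± 9.79 and 51.9 ± 45.7) in 9 of 10 samples, and glycine above serine (18.6 ± 4.42 and 31.3 ± 24.6) in 8 of 10. Serine and arginine (18.4 ± 7.82 and 30.3 ± 5.14) shared the lowest place, with serine the higher in 5 of 10 samples.

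All 6 tRNAs had a higher mean total in HFD-F0 than in CD-F0, and 0 of the 6 totals passed both of the study's thresholds, an unadjusted p of at most 0.05 and a log2 fold change of at least 1. All features were tested in one fit with edgeR, and 0.936% of its 641 features passed both thresholds upward. By p alone 4 of the 6 passed (His, Leu, Arg and Thr), against 6.55% of the 641 features, and in 1 of the 6 (Leu) every HFD-F0 sample was above every CD-F0 sample, against 2.96% of the features. The median log2 fold change of the 6 was 0.75, beside −0.04 over all 641 features.

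The histidine tRNA total, in replicates 1 to 5, was 110.2, 289.0, 156.7, 211.1 and 339.0 RPM in CD-F0 and 447.9, 505.4, 300.7, 414.7 and 354.2 RPM in HFD-F0. HFD-F0 replicate 3 fell within the CD-F0 range and the other 4 lay above it. The mean was 1.83 times as high in HFD-F0, a log2 fold change of 0.80 ± 0.28 (SE), with adjusted p = 0.310 (quasi-likelihood test of edgeR, adjusted after Benjamini and Hochberg for 641 features).

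The leucine tRNA total was 14.5, 35.8, 40.6, 30.2 and 38.7 RPM in CD-F0 and 45.4, 56.5, 42.9, 104.7 and 45.9 RPM in HFD-F0. The groups did not overlap, and HFD-F0 replicate 4 was the highest by far. On the log2 scale the fold change was 0.85 ± 0.33 (SE, edgeR, Benjamini-Hochberg adjusted p = 0.389), and without HFD-F0 replicate 4 it was 0.50.

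The serine tRNA, encoded between these, had totals of 8.35, 9.40, 11.2, 15.2 and 10.9 RPM in CD-F0 and 12.2, 6.59, 13.2, 43.6 and 16.7 RPM in HFD-F0. HFD-F0 replicate 2 was the lowest of all 10 samples and replicate 4 the highest. The log2 fold change of 0.70 ± 0.45 (SE) did not pass (edgeR, Benjamini-Hochberg adjusted p = 0.577), and without HFD-F0 replicate 4 it was 0.04.

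Glycine showed the same sample apart. Its total was 9.63, 21.5, 22.7, 9.62 and 21.0 RPM in CD-F0 and 22.4, 22.9, 23.8, 90.6 and 16.6 RPM in HFD-F0. The log2 fold change was 1.04 ± 0.49 (SE, edgeR, Benjamini-Hochberg adjusted p = 0.409) and dropped to 0.25 without HFD-F0 replicate 4.

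In arginine and threonine HFD-F0 replicate 4 was not apart. The arginine total was 7.76, 15.8, 9.16, 9.62 and 20.3 RPM in CD-F0 and 22.6, 23.8, 14.8, 20.4 and 21.4 RPM in HFD-F0, and the threonine total 22.4, 39.3, 24.1, 22.7 and 53.3 RPM in CD-F0 and 54.7, 58.2, 33.5, 56.7 and 58.4 RPM in HFD-F0. In both, HFD-F0 replicate 3 fell within the CD-F0 range and the other 4 lay above it, and for threonine it stood apart below them. The log2 fold changes were 0.65 ± 0.27 (SE) for arginine and 0.63 ± 0.28 (SE) for threonine, with edgeR, Benjamini-Hochberg adjusted p = 0.389 and adjusted p = 0.405.

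**Figure D1:**
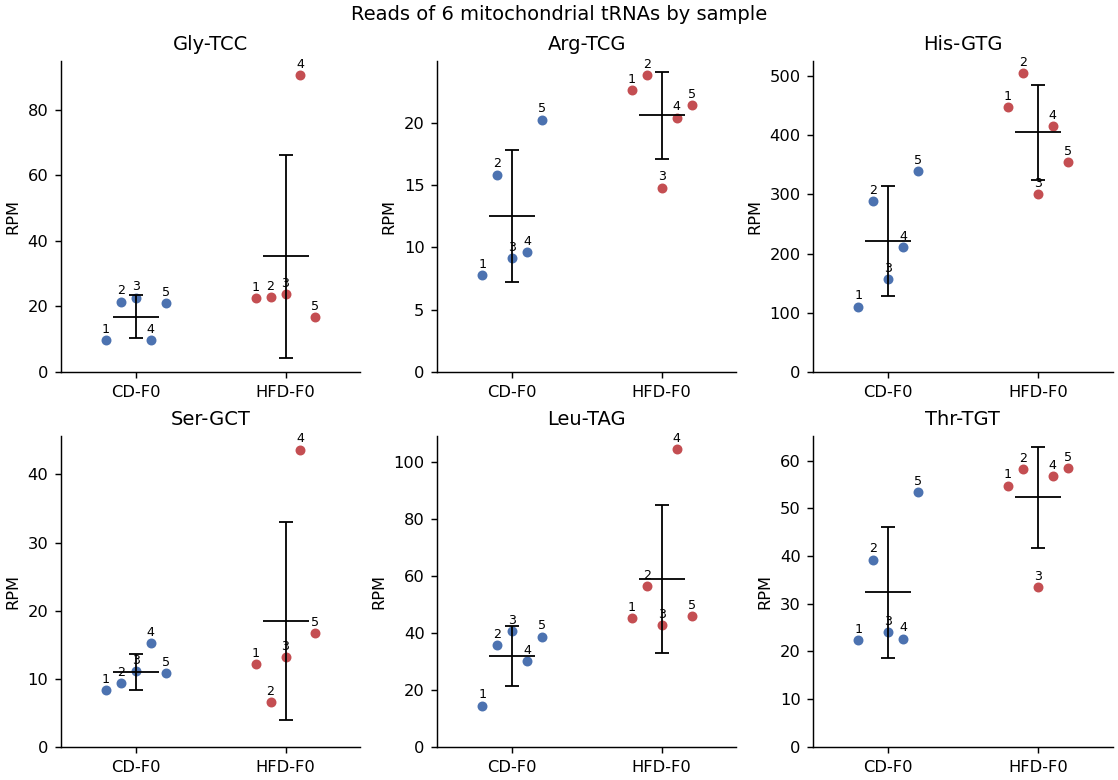
Total reads of each of the 6 tRNAs in RPM (vertical axes from 0), with 1 point per sample labelled by its replicate number and the mean ± SD (n = 5) in black. HFD-F0 replicate 4 lies far above the other samples for Gly, Ser and Leu (90.6, 43.6 and 104.7 RPM) but not for Arg, His and Thr.

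Among the parts, reads of the CCA end rose in HFD-F0 for the histidine, arginine and threonine tRNAs, and so did reads of the 3′ end of the histidine tRNA. These 4 were the parts past both thresholds among the 16 that passed the filter on low counts, and 0 fell. In the fit of all parts, 2.09% of 814 features passed both thresholds upward, and 7 of the 16 passed by p alone, against 6.14%. Every HFD-F0 sample was above every CD-F0 sample in 6 of the 16, against 3.69% of the 814 features. All 16 log2 fold changes were above 0, with a median of 0.90 and a range of 0.22 to 2.04, beside a median of −0.01 over all 814. Without HFD-F0 replicate 4 the median of the 16 was 0.53, and internal leucine reads were at −0.07.

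The CCA end of the histidine tRNA gave 23.6, 46.2, 19.5, 25.5 and 37.0 RPM in CD-F0 and 114.3, 95.2, 79.6, 147.6 and 115.7 RPM in HFD-F0. The lowest HFD-F0 sample was above the highest CD-F0 sample. The mean was 3.64 times as high, with a log2 fold change of 1.78 ± 0.26 (SE) and adjusted p = 0.0168 (quasi-likelihood test of edgeR, adjusted after Benjamini and Hochberg). It was the only one of the 814 features with an adjusted p under 0.05. These values rest on 606 to 4715 reads a sample.

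Because CCA is added after transcription, the reads that matched the genome, with 1 mismatch allowed, and those that did not were also taken apart. With that mismatch, a match to the genome does not by itself tell encoded from added CCA for any of the 6 tRNAs. For histidine this split has a further limit. Its gene ends in cc and the serine gene directly after it starts with a, so the genome itself reads CCA across this junction. Genome-matched reads of the histidine CCA end therefore need not carry added CCA. Genome-matched reads of the histidine CCA end averaged 14.5 ± 6.14 RPM in CD-F0 and 44.4 ± 8.14 in HFD-F0 (SD, n = 5), and unmatched reads 15.9 ± 6.97 and 66.1 ± 20.6. Neither kind overlapped between the groups. The matched share of these reads was 48.3% ± 10.3 in CD-F0 and 40.8% ± 6.11 in HFD-F0, with overlapping ranges. Matched reads of the arginine CCA end averaged 0.312 ± 0.268 RPM in CD-F0 and 1.005 ± 0.726 in HFD-F0 (SD, n = 5). Unmatched ones averaged 0.896 ± 0.558 and 2.26 ± 0.784, and both kinds overlapped. Matched reads of the threonine CCA end did not overlap, at 0.420 ± 0.364 and 1.79 ± 0.711 RPM. They were 98.5% ± 3.44 and 95.7% ± 4.54 of that end's reads. Its unmatched reads, 0.00635 and 0.0690 RPM, overlapped.

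The 3′ end of the histidine tRNA stands for reads labelled as its 3′ end and not as its CCA end. It gave 0.296, 1.14, 0.322, 0.794 and 0.607 RPM in CD-F0 and 3.53, 1.498, 1.18, 2.22 and 1.52 RPM in HFD-F0. The groups lay just apart, since HFD-F0 replicate 3 was barely above CD-F0 replicate 2. Its log2 fold change was 1.53 ± 0.41 (SE, edgeR, Benjamini-Hochberg adjusted p = 0.225), on 9 to 113 reads a sample. Internal reads of the same tRNA overlapped widely, at 86.3, 241.6, 136.8, 184.5 and 301.1 RPM in CD-F0 and 329.9, 408.5, 219.9, 264.9 and 236.7 RPM in HFD-F0, with a log2 fold change of 0.54 ± 0.30 (SE, edgeR, Benjamini-Hochberg adjusted p = 0.557). Its 5′ end had 0 to 10 reads a sample and was not tested.

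The CCA end of the arginine tRNA gave 0.329, 1.52, 1.52, 0.826 and 1.85 RPM in CD-F0 and 5.12, 1.87, 2.24, 2.91 and 4.20 RPM in HFD-F0. HFD-F0 replicate 2 and CD-F0 replicate 5 almost touched. Its log2 fold change was 1.33 ± 0.41 (SE, edgeR, Benjamini-Hochberg adjusted p = 0.225), on 10 to 164 reads a sample. Internal reads of the arginine tRNA did not overlap between the groups either, with 3.94 ± 1.59 RPM in CD-F0 and 8.29 ± 1.61 in HFD-F0 (SD, n = 5), and their log2 fold change of 0.97 ± 0.25 (SE, edgeR, Benjamini-Hochberg adjusted p = 0.224) was just under the threshold of 1. With the replicate number as a block it was 1.04 and with clean reads as library size 1.07, past both thresholds.

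The CCA end of the threonine tRNA gave 0.131, 0.918, 0.0322, 0.413 and 0.639 RPM in CD-F0 and 1.4999, 1.90, 1.58, 3.005 and 1.29 RPM in HFD-F0, on 1 to 96 reads a sample. No HFD-F0 sample was below 1 RPM and no CD-F0 sample above it. Its log2 fold change was 2.04 ± 0.60 (SE, edgeR, Benjamini-Hochberg adjusted p = 0.225).

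**Figure D2:**
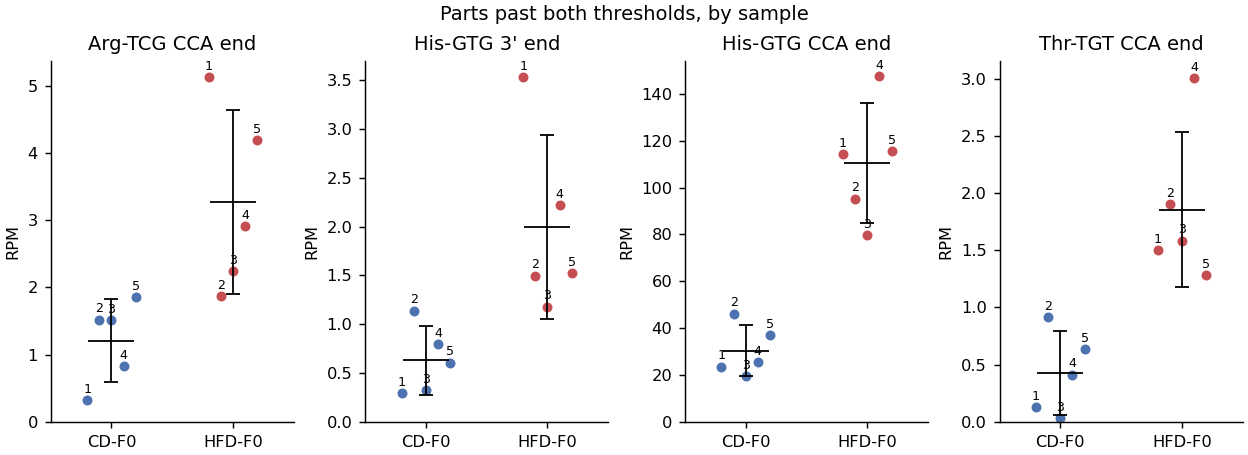
The 4 parts past both thresholds, in RPM (vertical axes from 0), with 1 point per sample labelled by its replicate number and the mean ± SD (n = 5) in black. The groups do not overlap in any of the 4 panels, and the histidine CCA end is the most abundant, at 110.5 ± 25.5 RPM in HFD-F0.

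The 5′ end of the leucine tRNA gave 5.62, 22.3, 22.8, 15.4 and 23.0 RPM in CD-F0 and 30.1, 44.0, 29.6, 31.8 and 28.6 RPM in HFD-F0. The groups did not overlap, CD-F0 replicate 1 was far below the rest, and HFD-F0 replicate 4 was not apart here. The log2 fold change was 0.82 ± 0.32 (SE, edgeR, Benjamini-Hochberg adjusted p = 0.397), under the threshold of 1. Internal leucine reads were 8.91, 13.4, 17.8, 14.7 and 15.6 RPM in CD-F0 and 15.2, 12.4, 13.2, 72.2 and 17.2 RPM in HFD-F0, so that 4 of the 5 HFD-F0 samples lay within the CD-F0 range. Their log2 fold change was 0.83 ± 0.49 (SE, edgeR, Benjamini-Hochberg adjusted p = 0.573) with all samples and −0.07 without HFD-F0 replicate 4.

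The serine tRNA had internal reads of 3.06, 2.98, 3.87, 9.69 and 3.19 RPM in CD-F0 and 5.06, 2.09, 6.77, 28.2 and 6.73 RPM in HFD-F0. Replicate 4 was the highest in each group, although the number marks different samples. The log2 fold change was 1.02 ± 0.63 (SE, edgeR, Benjamini-Hochberg adjusted p = 0.605), and without HFD-F0 replicate 4 it was 0.04. Its 5′ end was 6.25 ± 1.05 RPM in CD-F0 and 8.44 ± 4.11 in HFD-F0 (SD, n = 5), with a log2 fold change of 0.36 ± 0.31 (SE, edgeR, Benjamini-Hochberg adjusted p = 0.751) and 0.00842 without HFD-F0 replicate 4.

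The remaining 6 tested parts belong to glycine (5′ end, CCA end and internal), arginine (5′ end) and threonine (5′ end and internal), with log2 fold changes of 0.22 to 1.17. Of these, threonine internal reads passed by p alone (0.57 ± 0.25, SE, edgeR, Benjamini-Hochberg adjusted p = 0.432). The glycine 5′ end had a log2 fold change of 1.05 ± 0.52 (SE, edgeR, Benjamini-Hochberg adjusted p = 0.478), and 0.27 without HFD-F0 replicate 4. Without that sample the glycine CCA end went from 1.17 to 0.46 and glycine internal reads from 0.82 to 0.14. The other 8 of the 24 parts had too few reads to be tested. They are the 3′ ends of the 5 tRNAs other than histidine, the histidine 5′ end and the CCA ends of serine and leucine. The serine CCA end had reads in 2 of 10 samples, and the leucine 3′ end had 0 reads in all 10, which allows up to 0.0932 to 0.101 RPM in a sample (3 counts).

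**Figure D3:**
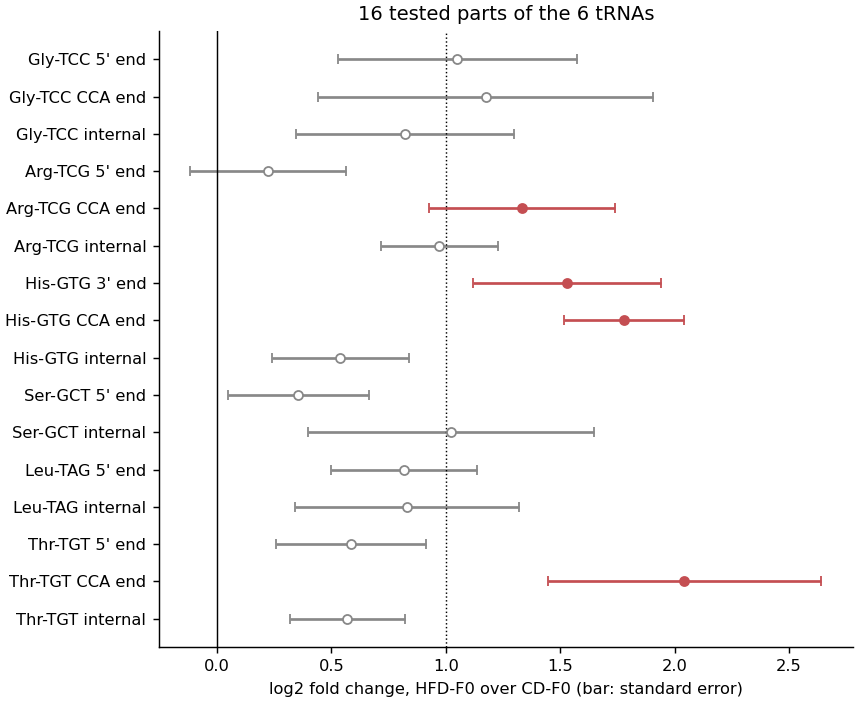
Log2 fold change (horizontal axis, HFD-F0 over CD-F0) with its standard error for the 16 tested parts, filled in red for the 4 past both thresholds and open grey for the others. The dotted line marks a log2 fold change of 1, and all 16 points lie between 0.22 and 2.04.

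The make-up of each tRNA's reads was then compared, apart from its level, as the share of each part in the reads of the tRNA. Of 23 shares of the 6 tRNAs, 8 had an exact permutation p ≤ 0.05, against 9.47% of 285 shares over 72 nuclear and mitochondrial tRNAs. The lowest p that 5 against 5 samples allow is 0.00794, and no share of any tRNA passed after adjustment over the 285, where the lowest adjusted p was 0.283. The shares of 1 tRNA are not separate results, since they add up to 100%.

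The CCA end took 21.4%, 15.99%, 12.5%, 12.1% and 10.9% of the histidine tRNA reads in CD-F0 and 25.5%, 18.8%, 26.5%, 35.6% and 32.7% in HFD-F0. All but HFD-F0 replicate 2 were above the highest CD-F0 sample. The mean share was 13.2 percentage points higher in HFD-F0 (two-sided exact permutation p = 0.0159, adjusted p = 0.399), and the internal share was lower by as much, at 85.1% ± 4.26 in CD-F0 and 71.7% ± 6.59 in HFD-F0 (SD, n = 5). With genome-matched reads only, the CCA share was 6.09 points higher (exact permutation p = 0.0238). Among the reads of the 3 named ends alone, without internal reads, it was 0.508 points higher (exact permutation p = 0.460). That setting left almost no room for a rise, since the CCA end held nearly all end reads of histidine in every sample. In HFD-F0 replicate 1 these were 3658 reads of the CCA end, 113 of the 3′ end and 6 of the 5′ end. The 95% Wilson interval of a sample's histidine CCA share was at most 1.39 points wide to each side, which covers counting error only.

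For threonine the CCA end took 1.21% ± 0.893 of the reads in CD-F0 and 3.65% ± 1.32 in HFD-F0 (SD, n = 5, two-sided exact permutation p = 0.0159, adjusted p = 0.399). For arginine the 5′ end took 60.6%, 57.0%, 53.9%, 60.4% and 61.0% in CD-F0 and 28.2%, 58.6%, 39.5%, 45.7% and 43.6% in HFD-F0. The arginine 5′ share was 15.5 points lower in HFD-F0 (HFD-F0 minus CD-F0 −15.5, two-sided exact permutation p = 0.0238, adjusted p = 0.399), with HFD-F0 replicate 2 inside the CD-F0 range, and among the 3 named ends alone −14.3 (exact permutation p = 0.0635). The arginine internal share was 8.81 points higher (p = 0.0238 by the same exact test). The arginine CCA share, 9.62% ± 4.42 and 15.9% ± 5.64, did not pass (exact permutation p = 0.103). The other members of the 8 were the 3′ ends of histidine and arginine and the CCA end of leucine, each a mean of under 1% of its tRNA's reads.

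The 3 adjacent tRNAs differed in how their reads were labelled by part. Almost no histidine reads were labelled as 5′-end reads, whereas the 5′ end took 59.1% ± 14.0 of the serine reads in CD-F0 and 52.6% ± 12.3 in HFD-F0, and 53.6% ± 9.32 and 61.2% ± 18.1 of the leucine reads (SD, n = 5). Reads without an end label count as internal, and where the internal histidine reads start is not known here. Neither the serine nor the leucine 5′ share differed between the groups beyond the spread (exact permutation p = 0.413 and 0.429). In HFD-F0 replicate 4 the internal reads were 69.0% of the leucine total, against 21.9% to 37.5% in the other HFD-F0 samples. Without that sample the leucine 5′ share was 15.3 points higher in HFD-F0 (exact permutation p = 0.0238).

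**Figure D4:**
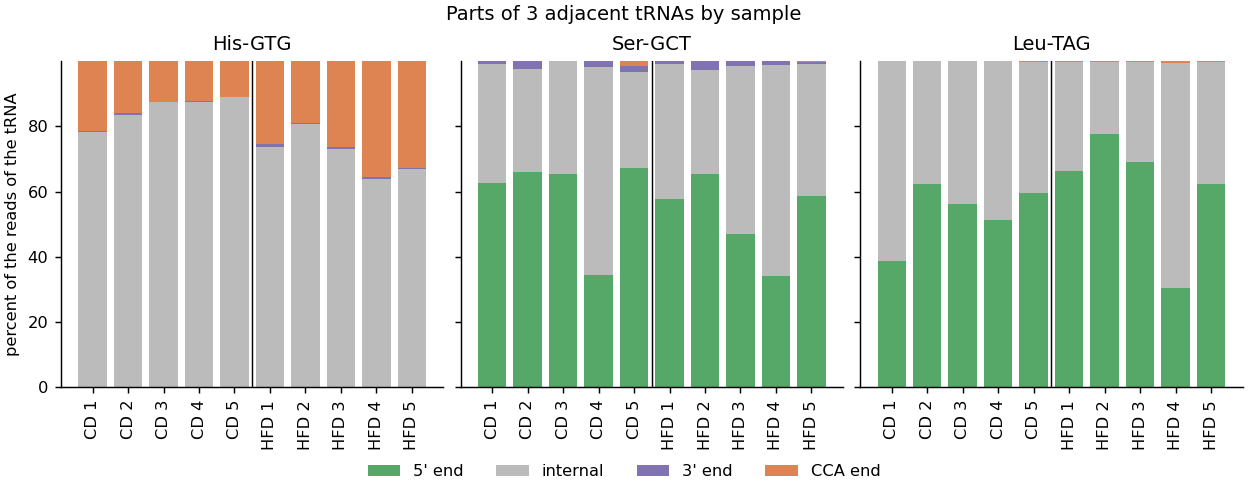
Share of each part (vertical axis, percent of the reads of the tRNA) in each of the 10 samples, for the histidine, serine and leucine tRNAs, with CD-F0 on the left of the line and HFD-F0 on the right. The histidine bars hold internal reads, CCA-end reads (10.9% to 35.6%) and almost no reads labelled as 5′ end. The serine and leucine bars hold 5′-end and internal reads with almost no CCA end.

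The genes for histidine, serine and leucine stand side by side, and their reads were far from equal. Per length, the histidine level was 8.37 to 67.6 times the serine level (median 19.4) and 4.09 to 10.5 times the leucine level (median 8.11), and the serine level was 0.140 to 0.692 of the leucine level (median 0.354). The order histidine, leucine, serine held in 10 of 10 samples.

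The ratios did not differ between the diets beyond their spread. By reads, histidine over serine was 13.2, 30.7, 14.0, 13.9 and 31.2 in CD-F0 and 36.8, 76.8, 22.8, 9.51 and 21.2 in HFD-F0, with HFD-F0 replicates 2 and 4 at the extremes. The difference in mean log2 ratio was 0.48 (two-sided exact permutation p = 0.421), that of serine over leucine −0.40 (exact permutation p = 0.381) and that of histidine over leucine 0.08 (exact permutation p = 0.690). Over all 15 pairs of the 6 tRNAs, 0 had an exact p ≤ 0.05 (the smallest was 0.206), against 9.52% of the 210 pairs of the 21 mitochondrial tRNAs with at least 50 reads in every sample.

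**Figure D5:**
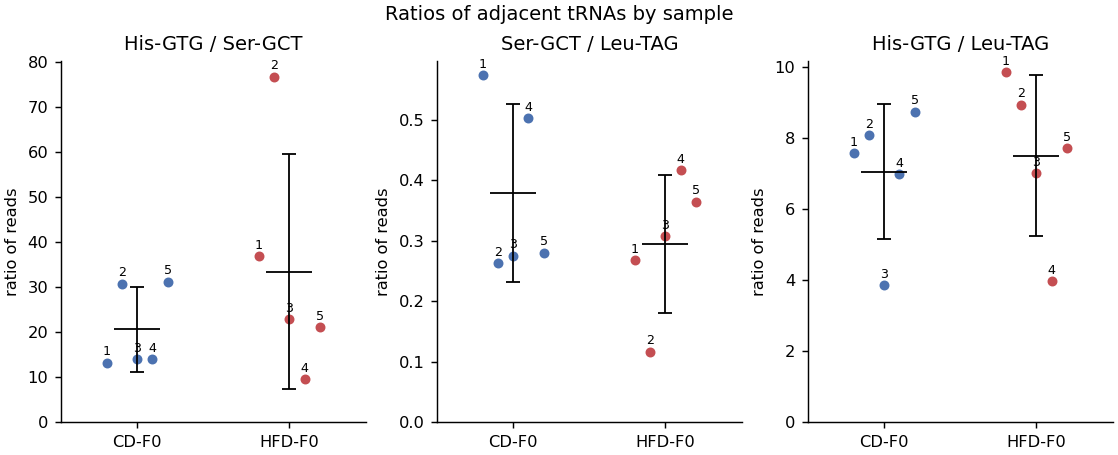
Ratio of the reads of 2 neighbouring tRNAs in the same sample (vertical axes from 0), with 1 point per sample labelled by its replicate number and the mean ± SD (n = 5) in black. The groups overlap in all 3 panels, and HFD-F0 replicate 2 has the highest ratio of histidine to serine, at 76.8.

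Beside them, the other 16 mitochondrial tRNAs also had higher means in HFD-F0. Their sum was 3253 ± 879 RPM in CD-F0 and 4871 ± 324 in HFD-F0, without overlap, and that of the 6 was 325.9 ± 122 and 590.3 ± 121 RPM (SD, n = 5), with HFD-F0 replicate 3 within the CD-F0 range. The 6 made up 9.13% ± 2.41 of all mitochondrial tRNA reads in CD-F0 and 10.8% ± 1.93 in HFD-F0, with overlapping ranges. Of the totals of the other 16, 3 passed both thresholds upward and 0 downward, beside 0 of the 6 in either direction. By p alone 8 of the 16 passed upward, beside 4 of the 6, and the median log2 fold change of the 16 was 0.59. Of the 37 tested parts of the other 16, 7 passed both thresholds upward and 0 downward, with a median log2 fold change of 0.60. The mitochondrial 12S and 16S rRNAs together were 8997 ± 1615 RPM in CD-F0 and 10336 ± 961 in HFD-F0 and overlapped.

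The nuclear tRNAs with the same 6 anticodons, which serve the ribosomes of the cytosol, did not move this way. Of their 24 parts, all tested, 0 passed both thresholds in either direction, and their median log2 fold change was −0.02. For the CCA end, 3 of 4 tested parts passed among the 6 tRNAs (median log2 fold change 1.56), 2 of 6 among the other mitochondrial tRNAs (1.24) and 1 of 49 among the nuclear tRNAs (0.10).

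Across the 10 samples the log2 RPM of arginine was most like that of threonine among the 72 other tRNA totals (Pearson r = 0.98) and then that of histidine (r = 0.96). The total most like glycine was mitochondrial proline (r = 0.89), that most like leucine was mitochondrial asparagine (r = 0.93), and that most like serine was the other mitochondrial leucine tRNA, Leu-TAA (r = 0.86). These correlations are descriptions over 10 samples of 2 groups that share library and depth.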

How the data were processed

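Small RNA of 5 HFD-F0 and 5 CD-F0 sperm samples was sequenced with adapters carrying unique molecular identifiers, and whether duplicates were collapsed is not stated. With SPORTS, the authors aligned clean reads by Bowtie with 1 mismatch allowed, to mm10 per the submitters' processing notes, and deposited estimated counts per RNA sub-class without normalization, in which reads that match more than one sub-class are divided among them. Versions are not given in the sources used here, and the files hold no fragment lengths.

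Genome-matched and unmatched reads were added, absent entries were 0, and internal reads were a tRNA's total minus its ends. RPM are per 1000000 clean reads. Counts were rounded and tested with edgeR 4.0.16 (R 4.3.3; filterByExpr, TMM, quasi-likelihood test, Benjamini-Hochberg adjustment), once over 814 features with tRNAs in parts and once over 641 with tRNA totals. Shares and log2 ratios were compared by two-sided exact permutation over 252 assignments of the samples (scipy 1.17.1), for tRNAs with at least 50 reads in every sample, adjusted over all such tRNAs or pairs. On simulated data with a log2 fold change of 2, 195 of 197 changed features were recovered in the fit with parts and 188 of 195 in the fit with totals. Of the unchanged features, 0.995% and 1.15% were called. Most changes reported here are smaller, and recovery at such sizes was not simulated. Each of the 6 totals and each tested part is named, with full statistics for histidine, serine and leucine and for other parts past the thresholds. The alternatives tried were another tool (DESeq2 1.42.0), library sizes from clean reads, other filters, genome-matched reads only, the replicate number as a block, and leaving out each sample. The members and lists were chosen with earlier results of these data known. The replicate numbers name different mice or samples and were not treated as pairs.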

Additional observations from a re-analysis of the deposited data

Results flagged for a closer look

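In 12 of 82 sets of 5 values, 1 sample lay apart from the others of its group by Dixon's test, where chance alone gives about 1 in 20. A total and its parts share reads, so these are not separate events. HFD-F0 replicate 4 accounted for 7 of them. Its glycine total was 90.6 RPM against 16.6 to 23.8 in the other HFD-F0 samples, its serine total 43.6 against 6.59 to 16.7 and its leucine total 104.7 (104.688) against 42.9 to 56.5. Its glycine 5′ end was at 67.5 RPM, its glycine internal reads at 17.9, its serine internal reads at 28.2 and its leucine internal reads at 72.2, where the other HFD-F0 samples reached 6.77 for serine and 17.2 for leucine.

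In HFD-F0, replicate 3 had the lowest threonine total, 33.5 RPM against 54.7 to 58.4, and replicate 2 the highest leucine 5′ end, 44.0 (43.9744) against 28.6 to 31.8. CD-F0 replicate 4 had serine internal reads of 9.69 RPM against 2.98 to 3.87, with a serine 5′ share of 34.3% against 62.6% to 67.4% and an internal share of 63.8% against 29.4% to 36.6%. The cause of these values was not tested.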

How the results depend on the processing

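Of the parts, 4 passed both thresholds, and 4 to 6 did under each alternative except the filter of at least 10 counts in every sample, where 2 passed, since the histidine 3′ end and the threonine CCA end were then not tested. The CCA ends of histidine and arginine passed under all 7 alternatives and without any 1 sample. Of the totals 0 passed, but 1 did (glycine) with DESeq2, with clean reads as library size and with no filter, and 0 to 1 when 1 sample was left out. With the replicate block 5 parts and 0 totals passed, the added part being arginine internal reads (1.04), and no other call changed. Compared with the 5 samples of the other group, 4 of 10 samples correlated best with the one of their own number. In the parts, the correlations of samples with the same number ran from −0.19 to 0.34. These values do not settle whether the numbers pair the samples. Leaving out the 3 CD-F0 libraries under 70% genome-matched, chosen after seeing the data, gave 5 parts and 0 totals.

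Of the shares 8 passed, 5 to 8 when 1 sample was left out, 7 with genome-matched reads only, and 3 with shares taken over the reads of the 3 named ends only, which leaves internal reads out. In that last setting the differences in the histidine CCA share (0.508, exact permutation p = 0.460) and the arginine 5′ share (−14.3, exact permutation p = 0.0635) no longer passed. The threonine CCA share still passed there (4.36, exact permutation p = 0.0159), and so did the threonine 5′ share (−4.30, exact permutation p = 0.00794). For histidine this setting could hardly show a rise, since the CCA end held nearly all of its end reads in every sample. With the 3 named ends only, the difference (HFD-F0 minus CD-F0, in percentage points) turned for the histidine 3′ end (−0.213), the leucine 5′ end (−0.523), the serine 5′ end (0.0891) and the threonine 5′ end (−4.30). The histidine, leucine and serine shares had little room to move there, as a single end held nearly all end reads of each tRNA. The log2 ratio of histidine over leucine turned with genome-matched reads only (−0.0752) and without CCA-end reads (−0.17). Leaving out 1 sample, it ran from −0.13 to 0.29, the log2 fold change of the arginine 5′ end from −0.0227 to 0.478, that of leucine internal reads from −0.0727 to 1.003, and the share difference from −0.631 to 1.06 for the glycine CCA end, from −2.76 to 2.25 for the threonine 5′ end and from −4.67 to 0.534 for threonine internal reads. The cause of these turns was not tested. Parts with under 100 reads in a sample, such as the threonine CCA end, are limited by depth.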
